A study of Saccharomyces cerevisiae with 21 samples.

Results

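Loss of the ubiquitin ligase Hel2 was examined in yeast that lack the ribosome rescue factor Dom34 and the mRNA decay helicase Ski2. The comparison was set by the strain labels: 2 ribosome profiling libraries labelled hel2 dom34 ski2 (*hel2Δ dom34Δ ski2Δ*) against 2 labelled dom34 ski2 (*dom34Δ ski2Δ*), 4 of the 21 samples of the series. All strains derive from BY4741 and carry the NGD-CGA reporter, so the controls share *ski2Δ*, *dom34Δ* and the stalling mRNA with the *hel2Δ* cells, and only *HEL2* (YDR266C, chromosome IV, 1000104 to 1002023 in R64) differs. Cells were moved from glucose to galactose medium to switch the reporter on, collected by filtration and flash frozen, and the mRNA inside single ribosomes (monosomes) was sequenced as ribosome-protected fragments (RPFs). The reporter is transcribed from a galactose promoter and encodes GFP, a 2A sequence, a FLAG tag and *HIS3* with 12 inserted CGA codons. The deposited values are reads of the reporter alone, scaled to the total of the library (rpm), so that the absence of *HEL2* reads could not be checked, and the labels do not say whether the 2 libraries of a strain came from separate cultures.

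A ribosome that halts on the mRNA is run into by the one behind it, and a row of such collided ribosomes forms a queue. Hel2 is an E3 ligase that recognises collided ribosomes and ubiquitinates proteins of the small subunit. In No-Go decay (NGD), the endonuclease Cue2 cuts the mRNA in the queue, Dom34 releases ribosomes that have reached the new mRNA end, the exosome degrades the 5′ fragment with the help of Ski2, and the helicase Slh1 clears stalled ribosomes from mRNA that is still whole. In cells without Dom34 and Ski2 ribosomes on cut mRNA stay in place, and they protect 16 nt RPFs whose 3′ end is the end of the mRNA. Ribosomes on whole mRNA protect 21 nt RPFs while they wait for a tRNA with an open A site, and 28 nt RPFs in the later, rotated state. These 2 sizes were placed by the codon in the A site, and the 16 nt RPFs by their 3′ end.

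Positions are counted from the start of CGA codon 2, whose first nt is 0, and the tract runs from -3 to 32. The first sequence holds the 87 nt of the queue from -120 to -34, with the codons that hold one of the 10 highest 16 nt positions of either strain in capitals (-114, -108, -105, -93, -90, -69 and -42). The second holds the 30 nt from -33 to -4, with the 4 codons in the A site of the first collided ribosome (-30 to -19) in capitals. The next is the tract, with CGA codons 2 to 5 in capitals (0 to 11, called the stall here), and the last sequence is the first 60 nt after it, which a ribosome reads only once it has passed the tract.
Queue, -120 to -34: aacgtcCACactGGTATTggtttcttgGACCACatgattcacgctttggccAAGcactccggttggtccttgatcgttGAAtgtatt
First collided ribosome, -33 to -4: ggtGACTTGCACATTgacgaccaccacacc
Tract, -3 to 32: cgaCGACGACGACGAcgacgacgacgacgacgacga
Downstream, 33 to 92: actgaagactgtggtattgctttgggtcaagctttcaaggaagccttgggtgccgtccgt
Because the tract is a repeat, reads inside it can match more than 1 place. All 12 positions of the stall can be told apart for each size, whereas 21, 16 and 9 of the 36 tract positions cannot for 16, 21 and 28 nt RPFs.

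The libraries held 12101621 and 9096523 reads in *dom34Δ ski2Δ* and 13542242 and 8993780 in *hel2Δ dom34Δ ski2Δ*, and the values of each library were whole multiples of 1 read (100% within 0.1 reads). Replicates 1 and 2 come from different deposited sets, whose labels give polyA RNA for the first and total RNA for the second, and each strain has 1 library in each. The 2 libraries of a strain differed by more than counting error (chi-square of 4.72 to 10.1 for each degree of freedom), and intervals from reads cover counting error only. For sums over a region, differences are *hel2Δ* minus control on the log2(rpm + 1) scale with two-sided exact permutation tests, whose smallest possible p is 0.333 for 2 libraries against 2. For codon windows of 3 nt, log2(rpm + 0.1) was compared with limma in 1 fit over 14 libraries of 8 strains with Benjamini-Hochberg adjustment, and a window is called higher or lower at an adjusted p under 0.05. Both kinds of p measure the spread between these libraries, which may be technical.

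Without *HEL2*, 16 nt RPFs fell at the first collided ribosome and not evenly elsewhere. From 300 nt before the tract to its end, 595 and 596 rpm of 16 nt RPFs were found in the 2 *dom34Δ ski2Δ* libraries and 311 and 374 rpm in the 2 *hel2Δ dom34Δ ski2Δ* libraries (595 ± 0.752 against 342 ± 44.9 rpm, mean ± SD, n = 2). Both *hel2Δ* libraries lay below both controls, with a difference of -0.80 (exact permutation p = 0.333) that was -0.93 in set 1 and -0.67 in set 2. At the first collided ribosome the controls had 277 and 324 rpm and the *hel2Δ* libraries 53.0 and 63.8 rpm. The means were 300 ± 33.2 and 58.4 ± 7.64 rpm (SD, n = 2), 5.14-fold lower without *HEL2*, and the log2 difference of -2.34 (exact permutation p = 0.333) was nearly the same in the 2 sets, -2.36 and -2.32. These 12 nt held 46.5% and 54.3% of the 16 nt reads of that stretch in the controls and 17.1% in each *hel2Δ* library.

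Within the first collided ribosome the loss was deepest at the upstream 2 of the 4 codons. RPFs that end at the first nt of the GAC codon at -30 carry the sequence below, with the 3′ end in capitals.
16 nt RPF ending at -30: gttgaatgtattggtG
They measured 135 and 167 rpm in the controls and 3.10 and 1.45 rpm without *HEL2*. At the first nt of the next codon, TTG at -27, the values were 58.8 and 87.7 rpm against 1.55 and 0.556 rpm. These were the strongest pair of positions in the controls, and in the *hel2Δ* libraries neither was among the 10 highest. The windows of these codons were the 2 of 130 tested (1.54%) called lower with limma, with log2 differences of -5.79 (SE 0.72, adjusted p = 0.000102) at -30 and -4.96 (SE 0.70, adjusted p = 0.000221) at -27, and both kept their call without any 1 of the 4 libraries and in every other fit of the same windows. At the CAC codon at -24, 46.1 and 40.9 rpm at the first nt in the controls compared with 16.9 and 26.1 rpm, and at the ATT codon at -21 24.4 and 21.1 rpm compared with 14.8 and 12.9 rpm. Both *hel2Δ* libraries were lower at these positions too, but the windows differed by only -0.43 (SE 0.91) and -0.61 (SE 0.76), with adjusted p of 0.894 and 0.799 with limma.

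Further upstream, 16 nt positions were lower to differing degrees. The first nt of ATT at -105 had 49.3 and 32.6 rpm in the controls and 17.1 and 16.3 rpm without *HEL2*, that of AAG at -69 25.0 and 45.1 against 7.68 and 4.56 rpm, and that of GAA at -42 22.9 and 27.9 against 10.9 and 9.45 rpm. GAC at -93 had 9.67 and 14.3 against 2.44 and 4.11 rpm. At these 4 positions both *hel2Δ* libraries lay below both controls, by 2.45-, 5.72-, 2.5- and 3.66-fold of the means, and none of the windows at -105, -69 and -42 was called (log2 differences -1.24, -2.45 and -1.34, adjusted p with limma 0.682, 0.36 and 0.616). The largest of these, at -69, was called when the 2 strains were fitted alone (adjusted p = 0.0306 with limma) and under no other setting. Over the 150 nt next to the tract the sum was 520 and 537 rpm in the controls and 225 and 247 rpm without *HEL2*, a difference of -1.16.

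**Figure D1:**
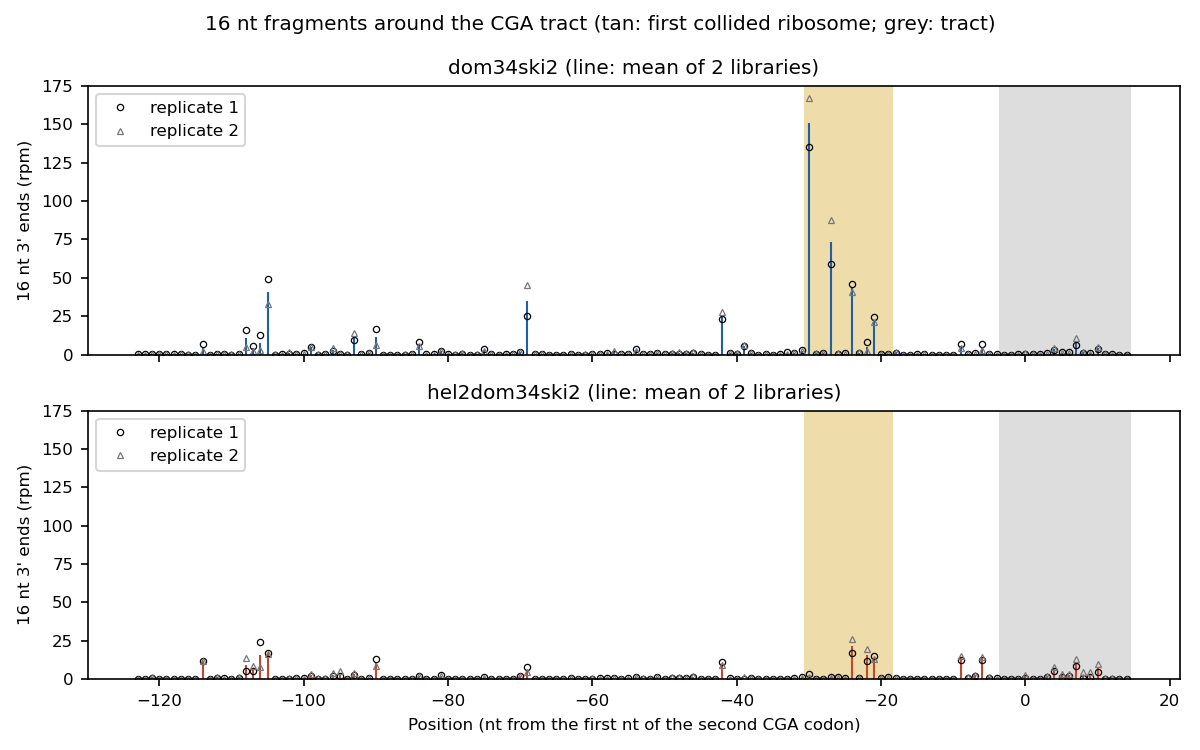
16 nt RPFs (3′ ends, rpm, y axis) at each position (x axis, nt from the second CGA codon) in *dom34Δ ski2Δ* and *hel2Δ dom34Δ ski2Δ*, with bars for the mean and points for the 2 libraries. The peaks at -30 and -27, at a mean of 151 and 73.3 rpm in the controls, were at 2.27 and 1.05 rpm without *HEL2*, whereas that at -24 remained among the 10 highest.

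Other 16 nt sites stayed or were higher without *HEL2*. Of 125 positions with a mean of at least 0.5 rpm, both *hel2Δ* libraries were above both controls at 44 (35.2%) and below them at 30 (24%). Before the tract the counts were 24 above and 25 below of 76, and more than 300 nt upstream 14 above and 4 below of 35. The minimum is a mean over the 4 libraries, so a position low in the controls could pass through the *hel2Δ* libraries alone, and the reverse. With no minimum, both *hel2Δ* libraries were above both controls at 167 of 1586 positions (10.5%) and below them at 96 (6.05%). No read was found in any of the 4 libraries at 646. The positions -24, -105, -21 and -90 were the 4 that ranked among the 10 highest of both strains, and the *hel2Δ* list otherwise held -106, -22, -9, -6, -114 and 7. At the first nt of CAC at -90 the libraries overlapped, with 16.8 and 5.94 rpm in the controls and 13.1 and 8.34 rpm without *HEL2*, as they did at GAA at -165, with 17.8 and 8.46 against 10.1 and 9.12 rpm. The libraries also overlapped at -106, at 12.5 and 2.64 against 23.9 and 7.89 rpm, and in the stall at position 7, at 6.36 and 10.6 against 8.57 and 13.2 rpm.

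Both *hel2Δ* libraries were above both controls at the remaining 4. At -22, the last nt of the CAC codon in the first collided ribosome, 7.85 and 2.31 rpm in the controls compared with 11.6 and 19.7 rpm, a 3.08-fold higher mean. The first nt of CAC at -9 had 6.78 and 4.29 against 12.6 and 14.8 rpm, that of ACC at -6 7.19 and 2.86 against 12.6 and 14.6 rpm, and that of CAC at -114 6.69 and 2.09 against 11.9 and 11.7 rpm. Strains that have Hel2 held reads at these sites too. At -22, -9, -6 and -114 the single *ski2Δ* library had 19.2, 13.9, 6.61 and 2.47 rpm. The *cue2Δ dom34Δ ski2Δ* libraries had 12.7 and 1.76, 12.8 and 3.22, 7.52 and 2.05, and 5.45 and 0.732 rpm. The 15 nt between the first collided ribosome and the tract (-18 to -4) summed to 17.3 and 10.1 rpm in the controls and 30.3 and 36 rpm without *HEL2*. Outside the 10 highest, and chosen after its values were seen, TCC at -183 had 2.89 and 1.21 against 8.05 and 7.67 rpm, and the last nt of ACC at -235 had 0.661 and 0.879 against 3.99 and 13.2 rpm. RPFs ending at -22, -9 and -183 read as follows, with the 3′ end in capitals.
16 nt RPF ending at -22: tattggtgacttgcaC
16 nt RPF ending at -9: cacattgacgaccacC
16 nt RPF ending at -183: ttggccattgaacacT
Most of the increase far from the tract lay in -303 to -214, at 5.12 and 4.62 rpm in the controls and 14.6 and 31.2 rpm without *HEL2* (+1.94). Over the whole far part of the stretch, -303 to -154, 54.0 and 33.2 rpm compared with 58.3 and 73.7 rpm.

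No window of 16 nt RPFs was called higher with limma (0 of 130, 0%), with 7 higher at an unadjusted p under 0.05, and edgeR on the recovered reads called 0. The closest was the GCC codon at -222, with 0.413 and 0 rpm in the controls and 2.22 and 3.00 rpm without *HEL2* (log2 difference 3.56, SE 0.92, adjusted p = 0.0651), which was called without *dom34Δ ski2Δ* replicate 1 (adjusted p = 0.0129), with a block for the replicate number (0.0258), relative to the upstream ribosomes (0.0278) and when the 2 strains were fitted alone (0.0306). The window at -237, which holds -235, differed by 3.14 (SE 1.15, adjusted p = 0.36) and was called with a pseudocount of 1 rpm (0.0464) and with the 2 strains alone (0.0171). The windows at -9, -6, -114 and -183 differed by 1.45, 1.61, 1.72 and 1.98, each with an adjusted p above that.

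The place within the codon where 16 nt RPFs ended differed as well. In the 300 nt before the tract, 87.6% and 91.8% of the control reads ended at the first nt of a codon (95% Wilson intervals 86.8 to 88.4 and 91.0 to 92.5), against 66.0% and 64.1% without *HEL2* (64.5 to 67.5 and 62.3 to 65.8). The share at the last nt of a codon was 7.51% and 4.61% in the controls and 23.0% and 23.8% without *HEL2*. Ends at the first nt measured 503 and 523 rpm in the controls and 187 and 205 rpm without *HEL2*, those at the second nt 27.8 and 20.4 against 31.1 and 38.9 rpm, and those at the last nt 43.1 and 26.3 against 65.3 and 76.3 rpm. Only the first of the 3 classes was lower in both *hel2Δ* libraries, and the other two were higher in both. In the first collided ribosome alone, first-nt ends made up 95.5% and 97.8% of reads in the controls and 68.7% and 64.3% without *HEL2*, while ends at the last nt measured 10.2 and 3.52 against 13.7 and 20.7 rpm. More than 300 nt upstream of the tract, where the sums overlapped (75.0 and 58.7 against 73.2 and 106 rpm), the first-nt share was 46.6% to 48.2% in the controls and 54.2% to 57.2% without *HEL2*.

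**Figure D2:**
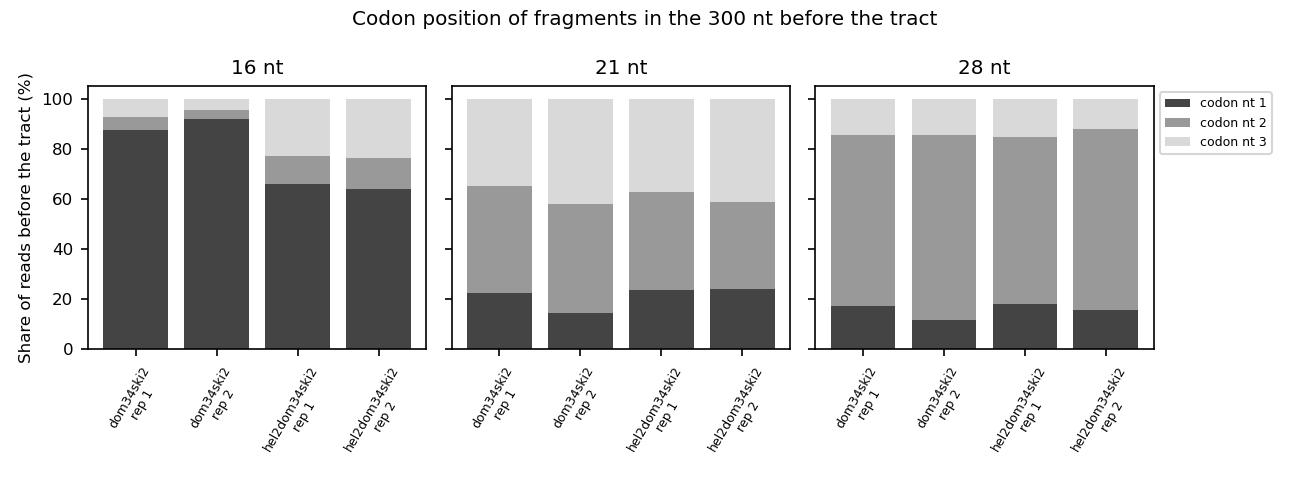
Share of reads (%, y axis) at the first, second and last nt of a codon (stacked shades) in the 300 nt before the tract, for each of the 4 libraries (x axis), with a panel for each RPF size. The first-nt share of 16 nt RPFs was 87.6% and 91.8% in the controls and 66.0% and 64.1% without *HEL2*, and the second-nt share of 28 nt RPFs was 66.7% to 73.9% in all 4.

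At the stall, 21 nt RPFs, from ribosomes that wait for the tRNA that reads CGA, did not separate the strains. CGA codons 2 to 5 held 321 and 590 rpm in the controls and 389 and 406 rpm without *HEL2* (456 ± 190 against 398 ± 11.8 rpm, SD, n = 2). The *hel2Δ* libraries lay between the controls, and the difference of -0.13 (exact permutation p = 1) was +0.28 in set 1 and -0.54 in set 2. Its sign rests on 1 library, since it was +0.31 without *dom34Δ ski2Δ* replicate 2. The highest positions were the second nt of codons 2 to 5, at 1 (51.7 and 170 against 68.8 and 96.0 rpm), 4 (95.1 and 154 against 104 and 72.8 rpm), 7 (42.8 and 79.7 against 47.9 and 37.7 rpm) and 10 (45.7 and 72.0 against 57.0 and 68.5 rpm). None of them separated the strains, and nor did position 0, with 34.6 and 50.0 against 50.6 and 36.9 rpm. The second nt of a codon took 73.3% and 80.5% of the 21 nt reads of the stall in the controls and 71.2% and 67.7% without *HEL2*.

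Farther into the tract the strains did separate. The last CGA codon (30 to 32), the end of the tract, held 10.9 and 10.3 rpm of 21 nt RPFs in the controls and 45.6 and 45.7 rpm without *HEL2*, nearly all of it at position 31 (10.5 and 9.34 against 42.8 and 43.3 rpm). Its window was called higher with limma (log2 difference 2.09, adjusted p = 0.0298), a call that was lost on leaving out any 1 of the 4 libraries (adjusted p 0.128 to 0.231). Relative to the stall, the end of the tract held 0.034 and 0.018 in the controls and 0.117 and 0.113 without *HEL2*. In *slh1Δ dom34Δ ski2Δ* cells, which have Hel2, this ratio was 0.179 and 0.208, and the last CGA codon held 92.4 and 121 rpm. That codon held 11.4 and 10.4 rpm in *cue2Δ dom34Δ ski2Δ* cells. Of 28 nt RPFs the tract as a whole held 91.3 and 89.5 rpm in the controls and 160 and 240 rpm without *HEL2* (+1.11), with 18.9 and 31.0 against 59.5 and 52.5 rpm on the first CGA codon and 51.8 and 42.1 against 62.7 and 124 rpm on the stall. Both *hel2Δ* libraries were above both controls in each of these, and of the 28 nt windows of the tract, that of the last codon was called (2.36).

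Behind the stall, the queue of 28 nt RPFs was not higher throughout without *HEL2*, but it held more ribosomes far from the tract. The first collided ribosome held 991 and 716 rpm of 28 nt RPFs in the controls and 852 and 309 rpm without *HEL2* (853 ± 194 against 581 ± 384 rpm, SD, n = 2), with overlapping libraries and a difference of -0.71 (exact permutation p = 0.667) that was +0.02 without *hel2Δ* replicate 2. At the second, 30 nt upstream, both *hel2Δ* libraries were lower, at 182 and 151 rpm against 208 and 354 rpm. At the next 2 the libraries overlapped. The third held 317 and 356 rpm in the controls and 375 and 237 rpm without *HEL2*, and the fourth 187 and 188 rpm in the controls and 230 and 84.4 rpm without *HEL2*. From the fifth on, both *hel2Δ* libraries were higher at each 30 nt step: 120 and 104 against 66.4 and 82.3 rpm at the fifth, 477 and 235 against 229 and 171 rpm at the sixth, 195 and 123 against 102 and 76.7 rpm at the seventh, and 142 and 77.3 against 47.7 and 34.5 rpm at the eighth.

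The 300 nt before the tract were also compared in 2 equal parts. The far part (-303 to -154) held 767 and 652 rpm of 28 nt RPFs in the controls and 1778 and 1044 rpm without *HEL2* (+0.95), while the near part held 3053 and 3187 against 3571 and 1925 rpm. The ratio of far to near, which does not depend on the depth or the level of the reporter, was 0.251 and 0.205 in the controls and 0.498 and 0.543 without *HEL2*, a 2.29-fold difference with no overlap (exact permutation p = 0.333). In the single *ski2Δ* library, which has Dom34 and Hel2, it was 0.209. In *slh1Δ dom34Δ ski2Δ* cells, which have Hel2, it was 0.369 and 0.397, also above both controls, and with *HEL2* deleted there as well it was 0.416 and 0.457. Of 446 windows of 28 nt RPFs tested, limma called 66 higher (14.8%) and 6 lower (1.35%) without *HEL2*. The far part held 8 of the higher windows among 46 tested and none of the lower, and 46 of its 46 differences were positive, with a median of 0.87 beside 0.04 over all windows. The near part held 2 higher and 3 lower of 50. Leaving out each of the 4 libraries in turn left 2 to 5 higher windows in the far part. The called codons there ranged from AAC at -243, with 0.0826 and 0.220 rpm in the controls and 1.70 and 6.12 rpm without *HEL2* (3.79, adjusted p = 0.0019 with limma), to GGT at -204, with 18.4 and 14.1 against 50.5 and 35.9 rpm (1.40, adjusted p = 0.0395). GCT at -162 had 6.86 and 10.6 against 34.6 and 34.1 rpm and AAG at -168 15.7 and 12.3 against 63.1 and 47.1 rpm. The higher windows reached past the stretch to GAG at -321 (15.0 and 8.68 against 49.5 and 34.2 rpm) and AAT at -315 (5.78 and 6.38 against 19.7 and 23.1 rpm). Farther upstream, ACG at -657, ATG at -852 and TCC at -900 were the other 3 lower windows, at 4.88 and 4.84 against 1.92 and 0.445 rpm, 13.0 and 12.1 against 5.91 and 3.45 rpm, and 3.39 and 2.64 against 1.33 and 0.111 rpm.

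**Figure D3:**
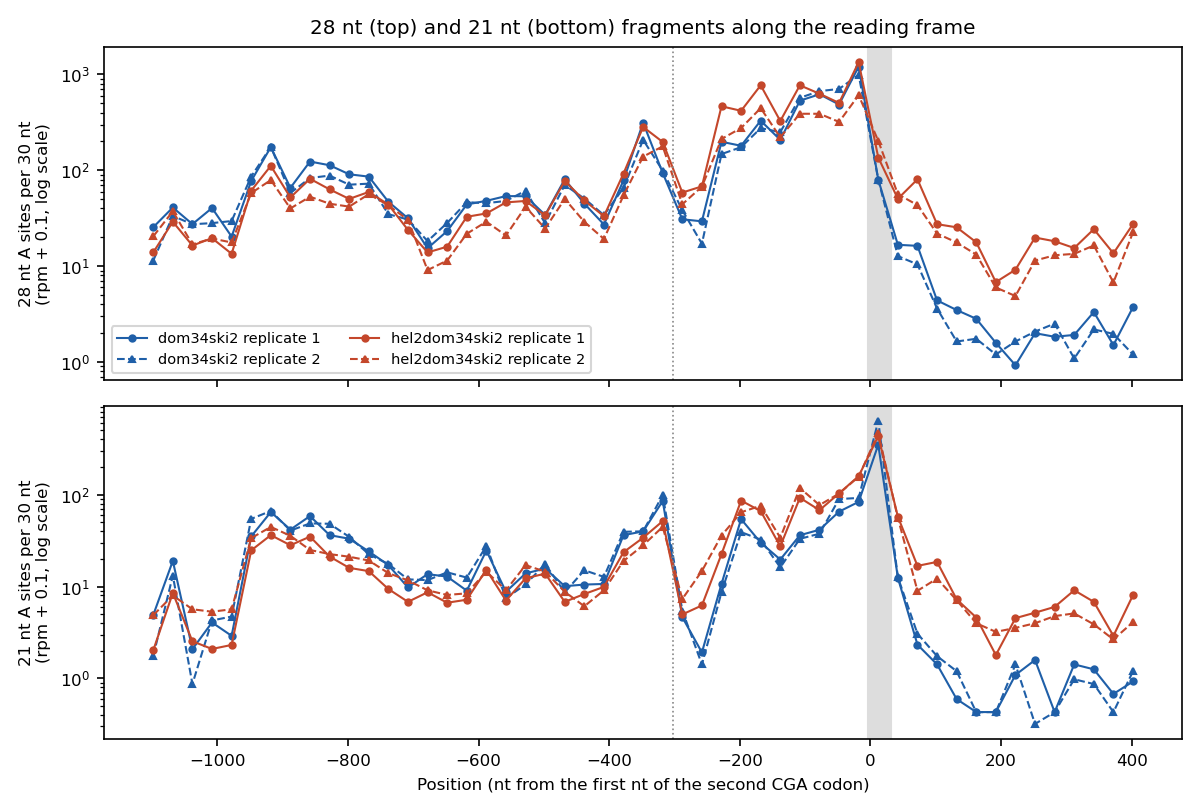
28 nt and 21 nt RPFs (rpm per 30 nt, log axis) along the reading frame (x axis, nt from the second CGA codon) in the 2 libraries of each strain. In 28 nt RPFs both *hel2Δ dom34Δ ski2Δ* lines lie above both controls in every bin of the far part of the queue, in 21 nt RPFs in every bin there but the first, where the lines cross, and in both sizes in every bin downstream of the tract.

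Single codons of the queue moved in opposite directions. The 28 nt RPFs of the CAC codon at -66 fell, from 174 and 151 rpm in the controls to 50.8 and 32.8 rpm (log2 difference -1.99, SE 0.54, adjusted p = 0.013 with limma), with the peak at its second nt at 142 and 128 against 42.3 and 23.8 rpm. The ATC codon at -48 (83.2 and 111 against 37.7 and 22.1 rpm, -1.73, adjusted p = 0.0271) and the CAA codon at -135 (15.8 and 24.6 against 6.57 and 3.34 rpm, -2.05, adjusted p = 0.0348) fell too. The CAC codon at -81 rose, with 29.1 and 22.4 rpm at its second nt in the controls and 91.6 and 99.7 rpm without *HEL2* (window 1.78, adjusted p = 0.0143), as did ATT at -36, from 12.6 and 19.8 to 45.7 and 47.0 rpm (1.55, adjusted p = 0.0311). The calls at -66, -48, -135 and -81 were each lost without at least 3 of the 4 libraries taken singly, with adjusted p of up to 0.0954 at -66, 0.197 at -48, 0.253 at -135 and 0.178 at -81, and the replicates of a strain were on the same side of the other strain throughout. Within the first collided ribosome, the second nt of CAC at -24 (position -23) had 400 and 202 against 257 and 79.1 rpm and that of TTG at -27 (position -26) 130 and 139 against 63.2 and 33.6 rpm, while that of ATT at -21 (position -20) had 180 and 166 against 288 and 120 rpm. Only at -26 did the libraries not overlap, and its window was not called (-1.51, adjusted p = 0.0774). The second nt of GGT at -33 (63 and 51.4 against 126 and 59.7 rpm), TTC at -99 (88.2 and 72.2 against 95.6 and 44.1 rpm) and ATT at -84 (76.0 and 63.7 against 95.6 and 53.9 rpm) completed the highest positions, and the libraries overlapped at all 3.

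The 21 nt RPFs of the queue were higher without *HEL2* in both libraries, at 635 and 686 rpm in the 300 nt before the tract against 347 and 355 rpm (+0.91). They made up 8.32% and 8.46% of the 21 and 28 nt RPFs there in the controls and 10.6% and 18.8% without *HEL2*, and 5.14% and 7.21% against 8.89% and 21.8% in the first collided ribosome. Of 323 windows limma called 16 higher (4.95%) and 0 lower (0%, with 20 lower at an unadjusted p under 0.05 and 0 by edgeR). Of these, 7 lay before the tract, at -255, -231, -219, -165, -138, -99 and -6, 1 in the tract and 8 downstream. The AAG codon at -255 rose from 0.165 and 0.220 rpm to 2.36 and 3.56 rpm, the ATT codon at -231 from 0 and 0.220 rpm to 1.62 and 2.45 rpm, and the ACC codon at -6, just before the tract, from 6.36 and 8.79 to 28.7 and 41.4 rpm. These calls depend on all 4 libraries: 2 remained without *dom34Δ ski2Δ* replicate 2 and 0 without any 1 of the other 3.

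**Figure D4:**
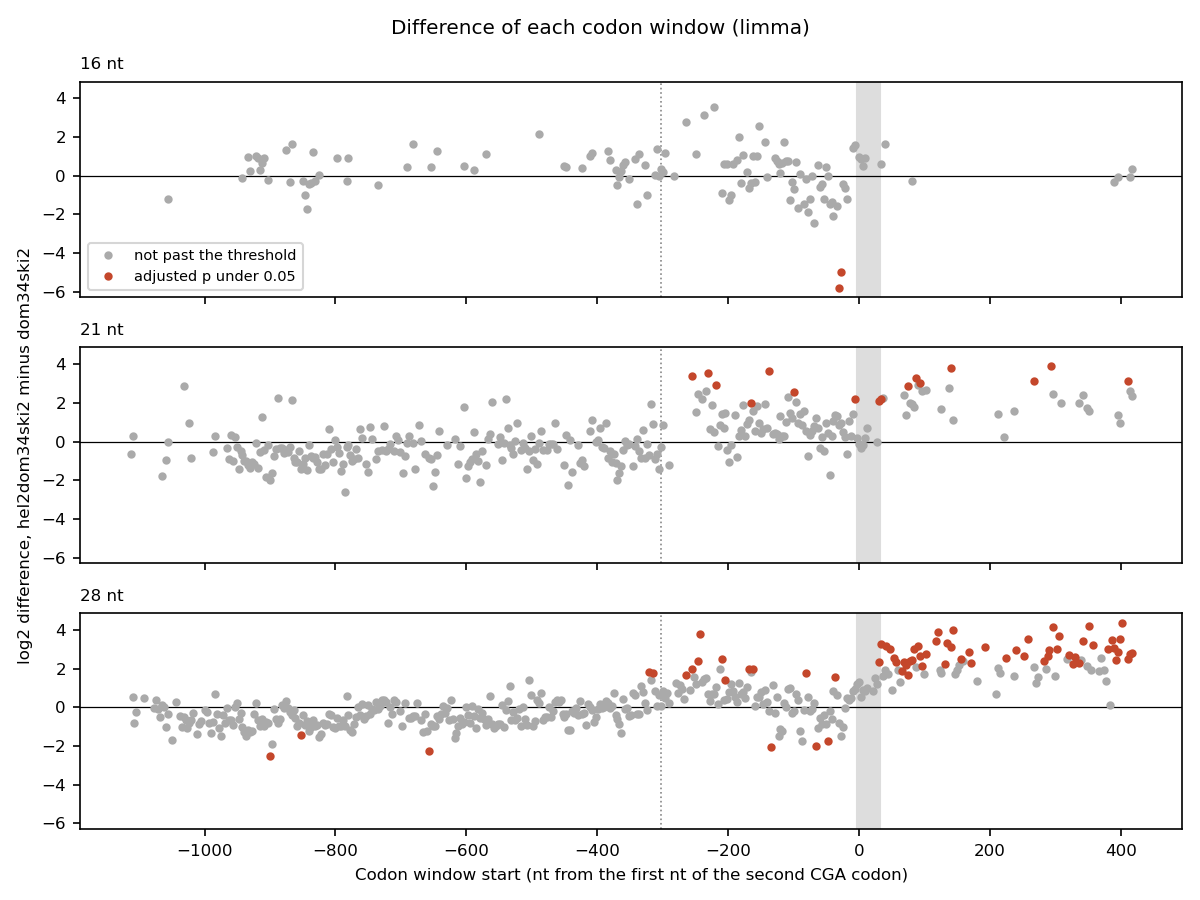
Difference between *hel2Δ dom34Δ ski2Δ* and *dom34Δ ski2Δ* (log2, y axis) in each codon window tested (x axis, nt from the second CGA codon), 1 panel for each RPF size, with windows at an adjusted p under 0.05 in red. The 16 nt panel holds 2 called windows, both lower, and the 28 nt panel 66 called higher, of which 53 lie downstream of the tract.

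Upstream of this stretch, where ribosomes translate GFP, 21 and 28 nt RPFs together were lower without *HEL2*, at 2007 and 1635 rpm against 2514 and 2314 rpm (1821 ± 263 against 2414 ± 142 rpm, SD, n = 2), with both libraries below both controls and a difference of -0.41 (exact permutation p = 0.333). For 21 nt RPFs alone it was -0.62 (412 and 451 against 642 and 684 rpm) and for 28 nt RPFs -0.35 (1595 and 1184 against 1872 and 1630 rpm). These upstream ribosomes are used below as a measure of ribosomes on the reporter, and values set relative to them are higher by that 0.41. Relative to them, the 21 and 28 nt RPFs from 300 nt before the tract to its end were 3.30 and 2.69 without *HEL2* and 1.84 and 2.13 in the controls, although as rpm they overlapped (6624 and 4406 against 4619 and 4930 rpm). At the first collided ribosome, the 16 nt RPFs remained lower relative to these ribosomes (-1.94).

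**Figure D5:**
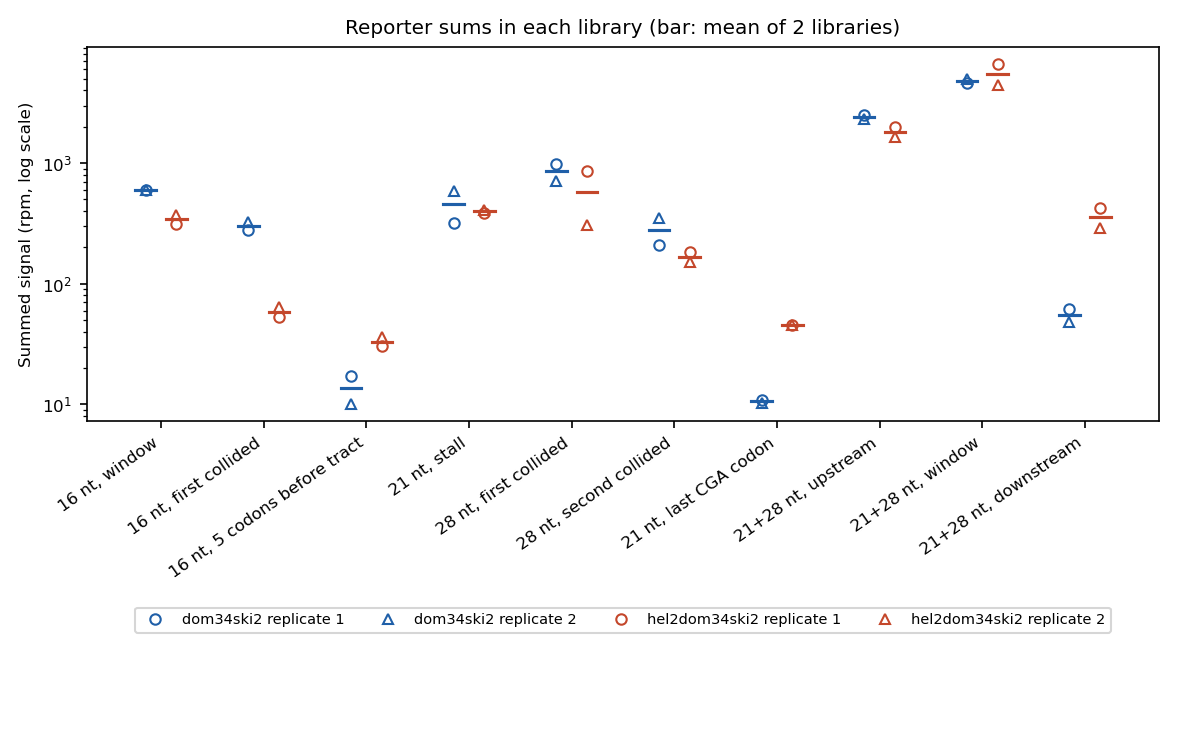
RPFs (rpm, log axis) summed over each region (x axis, where window means 300 nt before the tract to its end) in each of the 4 libraries, with a bar at the mean of each strain. The 16 nt RPFs of the first collided ribosome were 277 and 324 rpm in the controls and 53.0 and 63.8 rpm without *HEL2*, and the 21 and 28 nt RPFs downstream of the tract 62.1 and 47.8 against 423 and 288 rpm, while the 21 nt RPFs of the stall overlapped.

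Downstream of the tract, ribosomes were several-fold more frequent without *HEL2*. From the end of the tract to the stop codon (33 to 419), 62.1 and 47.8 rpm of 21 and 28 nt RPFs were found in the controls and 423 and 288 rpm without *HEL2* (55.0 ± 10.1 against 355 ± 95.3 rpm, SD, n = 2). Both *hel2Δ* libraries were far above both controls, 6.46-fold in the mean and by 2.66 on the log2 scale (exact permutation p = 0.333). For 28 nt RPFs the values were 48 and 34.1 against 315 and 213 rpm (+2.65), and for 21 nt RPFs 14.1 and 13.7 against 108 and 74.4 rpm (+2.6). The difference was found along the whole of the rest of *HIS3*: in successive 90 nt segments after the tract the sums were 30.7 and 23.9 against 184 and 118 rpm, 9.01 and 6.27 against 60.6 and 48.4 rpm, 8.26 and 8.24 against 70.4 and 46.7 rpm, and 9.09 and 6.60 against 69.6 and 49.4 rpm. The last 9 codons, stop included, held 5.12 and 2.86 against 37.4 and 25.4 rpm. After the stop codon 0.41 and 0 rpm compared with 0.44 and 0.67 rpm.

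Relative to the ribosomes more than 300 nt upstream, those downstream were 0.0247 and 0.0207 in the controls and 0.211 and 0.176 without *HEL2*, an 8.52-fold difference, 3.09 on the log2 scale in both sets (exact permutation p = 0.333). Per nt, the density downstream was 5.17% and 4.33% of that upstream in the controls and 44.1% and 36.8% without *HEL2*. The ratio moved alike for 28 nt RPFs (0.026 and 0.021 against 0.197 and 0.180) and 21 nt RPFs (0.022 and 0.020 against 0.261 and 0.165), and leaving out any 1 library kept the log2 difference between 2.96 and 3.22. The 16 nt RPFs downstream, at 19.1 and 19.2 rpm against 27.5 and 23.9 rpm, were only slightly higher (+0.40). Downstream 28 nt RPFs sat at the second nt of the codon in 62.8% to 70.0% of reads in the controls and 60.9% to 62.8% without *HEL2*. Most of the 28 nt reads thus lay at 1 place in the codon in each library. The 21 nt RPFs downstream were more spread without *HEL2*, with 20.5 and 16.9 rpm at the first nt, 51.2 and 33.0 at the second and 36.0 and 24.5 at the last.

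Most of the windows in which 28 nt RPFs rose lay here. Of 87 downstream windows that passed the filter on low values, 53 were called higher and 0 lower with limma, and the median difference was 2.42 beside 0.04 over all windows. Of 21 nt windows there 33 passed and 8 were called higher, with a median of 2.24 beside -0.07. The filter kept these 87 and 33 of 129 codons, and a window low in the controls could pass it through the *hel2Δ* libraries alone. With no filter 72 of all 129 windows were called higher for 28 nt RPFs (median 2.38 beside 0.21) and 10 of 129 for 21 nt RPFs (median 1.67 beside 0.31). The 28 nt count depended on single libraries, with 13 higher windows downstream without *dom34Δ ski2Δ* replicate 2, 22 without *hel2Δ* replicate 1, 32 without *hel2Δ* replicate 2 and 34 without *dom34Δ ski2Δ* replicate 1, and the 8 of 21 nt RPFs fell to 1 without *dom34Δ ski2Δ* replicate 2 and to 0 without any 1 of the other 3. Single positions were counted with no minimum. Over all 1586 nt, both *hel2Δ* libraries were above both controls at 441 positions (27.8%) and below them at 281 (17.7%) for 28 nt RPFs, and of the 387 downstream they were above at 240, below at 1 and overlapping at 113, with no read in any of the 4 libraries at 33. For 21 nt RPFs they were above at 366 (23.1%) and below at 215 (13.6%) over the reporter, and downstream above at 153, below at 0 and overlapping at 155, with no read at 79.

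The largest rises were at codons with almost no reads in the controls. The AAG codon 5 codons before the stop had no 28 nt read in either control library and 1.92 and 2.0 rpm (44 reads in all) without *HEL2*, at least 13.8-fold higher when set against a floor of 3 reads over the control group. GCC at 120 had none against 33 reads, at least 10.3-fold higher. GCC at 351 had 2 reads in the controls and 68 without *HEL2*, a ratio of 32 with a 95% counting interval of 8.52 to 269, CGT at 297 had 1 against 52 (48.9, interval 8.40 to 1969), and AGA at 144 had 1 against 49 (46.1, interval 7.89 to 1857). All 5 were picked as the largest rises among the windows called with limma, so their calls, ratios and intervals are no separate evidence. The call at 144 was lost without *hel2Δ* replicate 2 or *dom34Δ ski2Δ* replicate 1. Among 21 nt windows, picked in the same way, TTG at 294 had 1 read in the controls and 48 without *HEL2* (ratio 45.2, interval 7.73 to 1820). TCC at 141 had 2 against 59 (27.7, interval 7.35 to 234).

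Loss of *CUE2* in the same background offers the closest comparison. At the first collided ribosome, the *cue2Δ dom34Δ ski2Δ* libraries had 48.8 and 17.1 rpm of 16 nt RPFs and the *hel2Δ* libraries 53.0 and 63.8 rpm, and from 300 nt before the tract to its end 184 and 107 against 311 and 374 rpm. The first-nt share of 16 nt RPFs before the tract was 61.5% to 63.1% in *cue2Δ* cells. Tested directly against *CUE2* loss with limma, no 16 nt window differed (0 of 130, 0%), although 31 were higher in *hel2Δ* cells at an unadjusted p under 0.05 and 27 passed when set relative to the upstream ribosomes. Without *cue2Δ* replicate 1, 13 of these windows were called, and without *cue2Δ* replicate 2, 2. At -30 the difference was -0.22 (adjusted p = 0.874). Whole mRNA told the mutants apart: downstream of the tract the *cue2Δ* libraries had 68.1 and 65.1 rpm of 21 and 28 nt RPFs against 423 and 288 rpm, and 0.0279 and 0.0185 relative to upstream against 0.211 and 0.176. Of 28 nt windows 65 (14.6%) were higher and 10 (2.24%) lower in *hel2Δ* than in *cue2Δ* cells, with 45 of the 87 downstream and 13 of the 46 in the far part higher (55 of 129 and 13 of 50 with no filter). These 75 calls rested on single libraries: 6 were made without *hel2Δ* replicate 1 (1 higher downstream and 2 in the far part), 11 without *cue2Δ* replicate 2 (7 and 2), 24 without *hel2Δ* replicate 2 (19 and 3) and 42 without *cue2Δ* replicate 1 (23 and 6). The largest difference was at the codon at 393, with no read in either *cue2Δ* library and 1.77 and 1.56 rpm in *hel2Δ* (adjusted p = 0.0034). The far to near ratio of the 28 nt queue was 0.265 and 0.190 in *cue2Δ* cells, beside 0.498 and 0.543 in *hel2Δ* cells and the 0.369 and 0.397 of *slh1Δ dom34Δ ski2Δ*. For 21 nt RPFs 11 windows (3.41%) were higher and 1 (0.31%) lower, the largest at -240 (3.99, adjusted p = 0.0182). None of the 12 was called without *hel2Δ* replicate 1, *hel2Δ* replicate 2 or *cue2Δ* replicate 2 (adjusted p of up to 0.278 at -240), and without *cue2Δ* replicate 1 27 windows were.

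The effect of *HEL2* was finally set against that in cells that also lack Slh1. There, 16 nt RPFs from 300 nt before the tract to its end were 4961 and 5130 rpm in *slh1Δ dom34Δ ski2Δ* and 321 and 289 rpm once *HEL2* was deleted, a difference of -4.05 beside the -0.80 with Slh1 present, and at the first collided ribosome the differences were -5.00 and -2.34. With limma, the effect of *HEL2* differed between the backgrounds in 54 of 130 windows of 16 nt RPFs (41.5%), less negative or more positive with Slh1 in each. The filter on low values was a mean over all 14 libraries. A window could therefore pass it through *slh1Δ dom34Δ ski2Δ* alone, a strain of this contrast, and the 41.5% applies only to windows chosen in that way. The *hel2Δ* sums themselves were of similar size, 311 and 374 rpm with Slh1 and 321 and 289 rpm without. At -30 the interaction was 0.48 (adjusted p = 0.723), whereas at -21 it was 5.64 (SE 1.07, adjusted p = 0.0021), with 686 and 680 rpm in *slh1Δ dom34Δ ski2Δ* and 5.03 and 15.7 rpm without *HEL2*. Downstream of the tract loss of *HEL2* changed 21 and 28 nt RPFs by 2.66 with Slh1 and 0.98 without. The ratio of downstream to upstream ribosomes was already 0.138 and 0.128 in *slh1Δ dom34Δ ski2Δ* and was 0.156 and 0.166 with both genes deleted (3.09 against 0.27). Among 28 nt windows 14 (3.14%) and among 21 nt windows 19 (5.88%) differed in their *HEL2* effect. With single libraries left out the 54, 14 and 19 became 31 to 48, 0 to 23 and 0 to 25. The 28 nt count was 0 without either *dom34Δ ski2Δ* library, *hel2Δ slh1Δ dom34Δ ski2Δ* replicate 1 or *slh1Δ dom34Δ ski2Δ* replicate 1, and the 21 nt count 0 without *hel2Δ* replicate 2 or the same 2 libraries of the strains without Slh1.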

How the data were processed

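Monosome RPFs of 15 to 34 nt were sequenced by the authors, who trimmed the reads, discarded those of ribosomal and non-coding RNA, mapped the remainder uniquely to sacCer3 (R64) with the reporter added using STAR, and deposited the RPM (rpm, reads scaled to the library total) of each library at each nt of the reporter in 2 tables. The submitters' processing notes also name CASAVA 1.8. Each 16 nt RPF counts at its 3′ end, and 21 and 28 nt RPFs at the A site, inferred with an offset from the 5′ end that is mostly 17 nt or 16 nt. Unique mapping removes reads inside the repeat, which lowers values in the tract but not at its first codons. Of 57 columns of single libraries 42 were used. The other 15 were not, since 6 match no sample by name and the rest hold disome or in vitro fragments. One *slh1Δ dom34Δ ski2Δ* library has another fragment range in its labels than its columns show.

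Reads per position were recovered from the smallest step of each library. Depths over the 14 libraries fitted were 1261876 to 15416759 reads, and 3 reads came to 0.222 to 0.334 rpm in the 4 libraries compared. Regions were summed, and sums as log2(rpm + 1) compared by exact permutation of the libraries, two-sided (scipy 1.17.1). Windows of 3 nt in the reading frame with a mean of at least 0.5 rpm were fitted as log2(rpm + 0.1) by limma 3.58.1 (R 4.3.3, trend, strain as group, 6 residual degrees of freedom, threshold 0.05 after Benjamini-Hochberg). Such differences understate the change of windows with few reads. Shares of reads have Wilson intervals at 95%, and ratios of few reads exact intervals. Alternatives were other pseudocounts, no filter, windows moved by 1 nt, other limits of regions, values relative to the ribosomes (21 and 28 nt RPFs) over 300 nt upstream of the tract, called per reporter, the 2 strains alone, quasi-likelihood tests of the recovered reads (edgeR 4.0.16), a block for the replicate number, and fits without each library. A group left with 1 library was then assumed to vary like the others. The fits were also run on simulated reads with a fixed spread between libraries. Only large changes, in windows above the lowest values, were simulated, so changes in windows with few reads were not covered.

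The positions named are the 10 highest of 16 nt RPFs in each strain, the 5 highest of 21 nt RPFs in the tract and of 28 nt RPFs in the 100 nt before it, and the codon windows with the 5 largest rises and falls past the threshold, with the 3 largest differences in the other contrasts. The regions of the queue, the codons -81 and 30, other 16 nt positions and the windows printed beside positions were chosen once values were known. The members and lists were chosen with earlier results of these data known.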

Additional observations from a re-analysis of the deposited data

Results flagged for a closer look

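The effect of *HEL2* loss differed between cells with and without Slh1 by the interaction term of the limma fit (adjusted p under 0.05 after Benjamini-Hochberg) in 54 windows of 16 nt RPFs, 19 of 21 nt RPFs and 14 of 28 nt RPFs. Among 16 nt windows the interaction, the effect with Slh1 minus that without, was largest at -153 (9.50), -114 (8.52) and -177 (7.18), and was 5.64 at -21. At -153 *dom34Δ ski2Δ* held 0.0826 and 0.330 rpm and *hel2Δ slh1Δ dom34Δ ski2Δ* 0 and 0.596 rpm, beside 24.4 and 43.6 rpm in *slh1Δ dom34Δ ski2Δ*. In *hel2Δ slh1Δ dom34Δ ski2Δ* replicate 1, 3 reads came to 0.944 rpm, so the sizes at -153 and -114 rest in part on few reads. At -114 the values were 6.86 and 2.20 rpm in *dom34Δ ski2Δ*, 12.9 and 13.2 rpm in *hel2Δ dom34Δ ski2Δ*, 206 and 130 rpm in *slh1Δ dom34Δ ski2Δ* and 0.315 and 5.11 rpm with both genes deleted. Among 21 nt windows it was 6.14 at -255, 5.33 at -138 and 4.49 at 141, and among 28 nt windows 4.60 at the AAG codon 5 codons before the stop, 4.03 at 351 and -3.78 at -801. These 21 and 28 nt windows had at most 13.8 rpm in any of the 8 libraries, and all 6 calls were lost on leaving out 1 or more of the libraries.

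In 2 regions the libraries moved in opposite directions in the 2 backgrounds, and the difference between the effects was not tested. The 28 nt RPFs of the first collided ribosome differed by -0.71 with Slh1, where the strains overlapped and both sets had a negative difference, and by 1.03 without. The sum of 21 and 28 nt RPFs over 300 nt upstream of the tract differed by -0.41 with Slh1 and by 0.71 without, so that values set relative to them move by opposite amounts in the 2 backgrounds.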

How the results depend on the processing

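With 2 libraries a side no sum can pass the threshold, and the limits below concern values and counts. Leaving out each library in turn gave -2.47 to -2.21 for 16 nt RPFs at the first collided ribosome, -0.94 to -0.67 from 300 nt before the tract to its end, 0.14 to 0.67 upstream and 0.30 to 0.50 downstream. For 21 and 28 nt RPFs it gave 2.38 to 2.93 downstream, -0.56 to -0.27 upstream and 2.96 to 3.22 for their ratio. Signs turned for 21 nt RPFs at the stall (-0.57 to 0.31, and 0.28 per reporter or 0.034 over the whole tract), for 28 nt RPFs at the first collided ribosome (-1.44 to 0.018, with -1.09 to -0.33 at the second) and for 21 and 28 nt RPFs from 300 nt before the tract to its end (-0.12 to 0.47).

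Counts of called windows without each library were 2 lower and 0 to 1 higher for 16 nt RPFs, 0 lower and 0 to 2 higher for 21 nt RPFs, and 0 to 11 lower and 15 to 42 higher for 28 nt RPFs. They were 0 to 13, 0 to 27 and 6 to 42 against *cue2Δ*, and 31 to 48, 0 to 25 and 0 to 23 for the interaction with Slh1, for 16, 21 and 28 nt RPFs. With the 2 strains alone, 4 windows of 16 nt RPFs were lower and 2 higher, and 16 of 21 nt RPFs were lower and 49 higher. Higher 16 nt windows numbered 2 with a pseudocount of 1 rpm, and 1 with the replicate block, with windows moved by 1 nt or per reporter. Higher 21 nt windows numbered 27 with edgeR, 7 with windows moved by 1 nt and 40 per reporter, and higher 28 nt windows 128 per reporter. Against *cue2Δ*, per reporter values gave 27, 65 and 164 windows of 16, 21 and 28 nt RPFs, and for 21 nt RPFs edgeR gave 30, the replicate block 24 and windows moved by 1 nt 3. For the interaction, per reporter values gave 82, 57 and 91, windows moved by 1 nt 7 of 21 nt and 0 of 28 nt RPFs, and for 28 nt RPFs a pseudocount of 1 rpm 27, no filter 4, edgeR 41 and the replicate block 25.

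Same-numbered libraries share only a number and a deposited set, and their deviations correlated at 0.148, 0.188 and 0.180 for 16, 21 and 28 nt RPFs over 2 strains. With the replicate block the differences of sums are unchanged by arithmetic (smallest exact p 0.5), and 2 lower 16 nt, 24 higher 21 nt, and 7 lower and 69 higher 28 nt windows were called against *dom34Δ ski2Δ*.

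Among named windows against *dom34Δ ski2Δ* the sign turned for 28 nt RPFs at -21 with edgeR (0.17), per reporter (0.38) and on leaving out single libraries (-0.85 to 0.79, positive without *hel2Δ* replicate 2 or *dom34Δ ski2Δ* replicate 1). For 21 nt RPFs it turned per reporter at 0, 3 and 6 (0.28, 0.065 and 0.22) and on leaving out *dom34Δ ski2Δ* libraries at 0 (-0.81 to 0.54), 6 (-0.58 to 0.20) and 9 (-0.073 to 0.48). Against *cue2Δ* it turned for 16 nt RPFs at -30 per reporter (0.45) and without single libraries (-0.68 to 0.25), and at -27 without *hel2Δ* replicate 1 (-0.45 to 0.98). The interaction at -30 was -0.30 to 1.26, negative without *hel2Δ slh1Δ dom34Δ ski2Δ* replicate 1. None of these windows was called, and the cause was not tested. Over the named windows of all contrasts, 570 values kept their sign and side of the threshold, 89 lost the call, 12 gained it and 15 turned. Depth limits the downstream codons of the controls, where 22 of 129 had no 28 nt read in either library (3 of the 87 that passed the filter) and 41 had no 21 nt read.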
